A study of Mus musculus with 12 samples.

Results

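Receptor-deficient dendritic cells (DC) of the mesenteric lymph nodes (MLN) were set against receptor-deficient DC of the spleen. The first group, MLN Cre+, held CD11c+CD103+ DC, and the second, spleen Cre+, held splenic CD11c+ DC. Both came from C57BL/6 mice of genotype "Cre+ TGFBR2 deletion", in which the type II TGF-beta receptor was targeted in DC only. Not given in the sources used here are the Cre driver, the deleted exons and the ages of the mice. MLN Cre- and spleen Cre-, the same cells of Cre- control mice, served to ask whether the tissue difference depended on the genotype. Each of the 4 groups had 3 of the 12 Mouse Exon 1.0 ST arrays, which read RNA as log2 expression per gene. Each MLN sample was a pool of 4 mice and was flow-sorted, whereas splenic cells were sorted magnetically and the mice behind each splenic sample were not stated. Tissue, subset, sorting method and pooling therefore cannot be told apart in this comparison. For MLN Cre+ the labels disagree: the cell type entry says Cre-, whereas genotype, source and title all say Cre+, and the group was set by these.

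Of 23332 probe sets on the arrays, 14518 carried 1 gene symbol (14382 genes) and were not assigned to X or Y. The comparison was made over the 8184 of these (8123 genes) for which the higher of both group means was above 7 after quantile normalization of the 12 arrays together. Just inside that level lay Tas2r143 (7.00002 in spleen Cre+) and Wnt9b (7.00076 in MLN Cre+), and just outside it Olfr411 (6.99992 in MLN Cre+) and Ankrd2 (6.9996 in MLN Cre+). "Measured" below refers to all 14382 genes, whatever their level, and a gene with several probe sets was read through the one of highest mean.

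DC take up antigen in tissues, carry it to lymph nodes and present it to T cells. CD103, the integrin chain encoded by Itgae, marks the DC that travel from the gut wall to the MLN, and these cells are known for making retinoic acid and for guiding T cells to the gut. On the way to the node, DC pass through a maturation programme in which chemokines of the CCR4 ligand family, the actin-bundling protein fascin and other genes are switched on. Splenic CD11c+ cells include resident DC that reach the spleen from the blood, and a magnetic CD11c selection may keep some macrophages and other leukocytes that carry or bind CD11c. TGF-beta signals through a receptor pair, of which TGFBR2 is the ligand-binding chain, to SMAD transcription factors.

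The deposited values had a different spread in each tissue. Array medians were 6.79 to 6.89 in MLN Cre+ and 7.03 to 7.07 in spleen Cre+, while their SD was 1.85 to 1.91 in MLN Cre+ and 2.41 to 2.42 in spleen Cre+. Quantile normalization gave every array 1 common distribution, and each result is given on it first. On that scale, arrays of a group correlated at 0.982 or more in MLN Cre+ and 0.984 or more in spleen Cre+, and at 0.919 to 0.935 between the groups (taken over probe sets, as a description). A gene is said to have risen or fallen in MLN Cre+ only where limma called it at an adjusted p under 0.05 in the same direction on both scales. All other genes are given by their values. With 3 arrays a group, the number of arrays limits the precision, and p-values measure the spread between arrays.

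Both tissues differed widely. On the quantile-normalized scale 2367 members, 28.9% of the 8184, were higher in MLN Cre+ and 2996, 36.6%, were lower. On the deposited scale 506 (6.18%) were higher and 6530 (79.8%) were lower, so the share of calls that were higher was 44.1% on the first scale and 7.19% on the second. The median difference of the members was -0.06 after quantile normalization and -0.82 as deposited. As deposited it was -0.49 for genes at a level of 7 to 8, -0.84 at 8 to 9, -1.05 at 9 to 10, -1.09 at 10 to 11 and -1.03 at 11 and above. No fewer than 951 members were called higher after quantile normalization and lower as deposited, which is why a call on both scales was required. That requirement is harder to meet for a gene that is higher in MLN Cre+. Members that were called on both scales and differed at least 2-fold after quantile normalization numbered 255 higher (3.12%) and 652 lower (7.97%). This 2-fold rule was chosen after the values were seen.

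**Figure D1:**
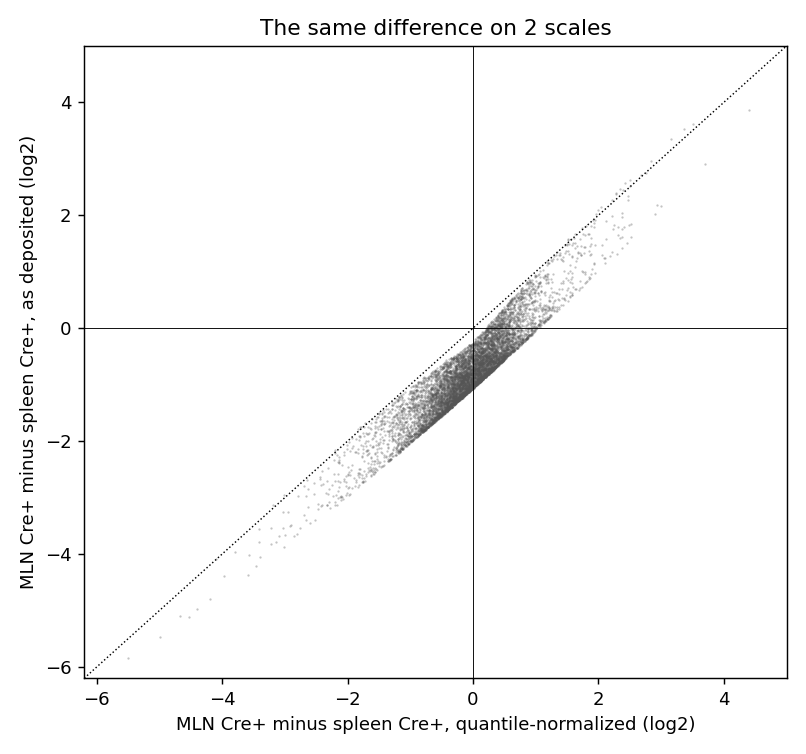
Difference between MLN Cre+ and spleen Cre+ for each member gene, after quantile normalization (x axis, log2) and as deposited (y axis, log2), with 1 point a gene. The cloud lies below the dotted line of equal values, since the members' median is -0.06 on the x axis and -0.82 on the y axis.

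The gene that defines the MLN sort and the deleted gene were examined first. Itgae measured 7.87, 8.06 and 8.19 in MLN Cre+ and 7.51, 6.97 and 6.99 in spleen Cre+. All 3 MLN Cre+ arrays were above all 3 spleen Cre+ arrays. The difference was 0.89 (SE 0.159, adjusted p = 8.49e-04 in limma) after quantile normalization and 0.42 (adjusted p = 0.0805) as deposited, so the call held on the first scale alone. The exact two-sided permutation p was 0.1, the smallest that 3 arrays against 3 can give. Itgax, which encodes CD11c, shares its probe set with a second symbol and was not read. Tgfbr2 measured 10.04, 9.88 and 9.86 in MLN Cre+ and 10.09, 10.14 and 10.13 in spleen Cre+. The difference of -0.19 (adjusted p = 0.0955) did not pass in limma after quantile normalization, and as deposited it was -1.23 (adjusted p = 1.84e-07), with an exact p of 0.1. A gene-level value also covers probes outside a deleted part, so it does not measure the deletion.

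Of 10 core conventional DC genes, none rose and 3 fell on both scales (30.0%). All 10 lay above the level of 7, and of the members 6.18% rose and 36.6% fell, so the list lay near the members' shares. The median difference of the core conventional DC genes was -0.01 after quantile normalization and -0.91 as deposited. Flt3, the receptor for the DC growth factor FLT3 ligand, averaged 10.80 in MLN Cre+ and 10.74 in spleen Cre+, and its difference was 0.06 after quantile normalization and -0.96 as deposited. H2-Aa, an MHC class II chain, averaged 13.15 in MLN Cre+ and 13.22 in spleen Cre+, and its difference was -0.62 as deposited and 1.18 where each array was set to 1 median and SD. B cell and T cell genes also gave values far above the level of 7 in both groups. Cd79b, a signalling chain of the B cell receptor, measured 13.02, 12.87 and 12.69 in MLN Cre+ and 12.70, 12.78 and 12.85 in spleen Cre+, and its difference was 0.08 after quantile normalization and -0.48 as deposited. Cd3e, a signalling chain of the T cell receptor, measured 11.74, 11.72 and 12.19 in MLN Cre+ and 8.77, 10.21 and 10.37 in spleen Cre+, where replicate 1 lay below the others. These arrays carry no detection call, and the share of other cells in either sort was not measured. In such bulk samples, fewer cells of a type and less RNA per cell cannot be told apart.

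Among the members called on both scales, the largest rise was that of Aldh1a2, which encodes the retinal dehydrogenase RALDH2, the last step in making retinoic acid. It measured 11.29, 11.04 and 11.24 in MLN Cre+ and 6.68, 6.92 and 6.76 in spleen Cre+. The groups lay far apart, by 4.40 on the log2 scale, 21.1-fold (SE 0.109, adjusted p = 8.98e-09 in limma), and by 3.87 as deposited. The same tissue difference in Cre- mice was 4.44. Of 24 measured genes of retinoic acid synthesis and its receptors, 6 rose (25.0%) and 8 fell (33.3%), with a median of -0.12. Over all measured genes 20.5% rose and 25.1% fell on both scales, so the pathway as a list lay near these shares. The other genes of the pathway that rose did so by less than 2-fold after quantile normalization, among them the alcohol dehydrogenase Adh7 (0.97, and 1.31 as deposited), the retinoic acid hydroxylase Cyp26b1 (0.50) and the binding protein Crabp1 (0.50). Falls included the retinol dehydrogenases Dhrs9 (-1.29), Rdh14 (-1.12) and Rdh10 (-0.78) and the nuclear receptor Rxra (-0.65).

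Of 22 measured genes of the migratory DC programme, 12 rose on both scales, all by at least 2-fold after quantile normalization, 1 fell and 9 did not pass on both scales. Over all 14382 measured genes the shares on both scales were 20.5% higher and 25.1% lower, and 5.4% and 5.79% with the 2-fold rule. The list's median was 1.62 after quantile normalization and 0.62 as deposited, against 0.05 and -0.30 over all measured genes. On the quantile-normalized scale alone 19 were higher and 1 lower, where 33.7% of all measured genes were higher and 28.5% lower.

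Ccl22, a chemokine that draws CCR4-bearing T cells, measured 11.84, 11.81 and 12.12 in MLN Cre+ and 8.07, 8.33 and 8.27 in spleen Cre+. It rose by 3.70, 13-fold (SE 0.123, adjusted p = 5.08e-08 in limma), and by 2.91 as deposited. Ccl17, the other ligand of that receptor, measured 8.74, 9.0 and 8.44 in MLN Cre+ and 6.68, 6.77 and 7.16 in spleen Cre+, a rise of 1.85 (adjusted p = 1.71e-04). Fscn1, which encodes fascin, the actin-bundling protein of mature DC, measured 13.10, 13.12 and 13.30 in MLN Cre+ and 10.40, 10.38 and 9.72 in spleen Cre+, a rise of 3.01 (adjusted p = 1.09e-06). Its spleen Cre+ arrays differed among themselves, and the lowest was replicate 3. Apol7c, an apolipoprotein L family gene, measured 12.21, 12.28 and 12.49 in MLN Cre+ and 9.58, 9.72 and 8.97 in spleen Cre+, a rise of 2.90 (adjusted p = 1.21e-06). Ccl22, Fscn1 and Apol7c were named by a rule that required no overlap between the groups.

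Also on this list, the amino acid oxidase Il4i1 rose by 2.46, the suppressor of cytokine signalling Socs2 by 2.38, the neuronal enolase Eno2 by 2.24, the transporter Slco5a1 by 2.12 and the cytoskeletal protein gene Arc by 1.87. Anxa3 (1.82), and the protease inhibitors Serpinb9 (1.69) and Serpinb6b (1.55), completed the 12. Stat4 (1.33), Cd200 (1.27) and Traf1 (1.13) passed after quantile normalization alone. Ccr7, the receptor that leads DC into lymph vessels and nodes, measured 13.19, 13.15 and 13.20 in MLN Cre+ and 12.72, 12.83 and 12.58 in spleen Cre+. Its difference was 0.47 (adjusted p = 0.00153 in limma) after quantile normalization and -0.10 (adjusted p = 0.407) as deposited. Nr4a3, a nuclear receptor of the immediate early class, was the member that fell (-0.88).

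**Figure D2:**
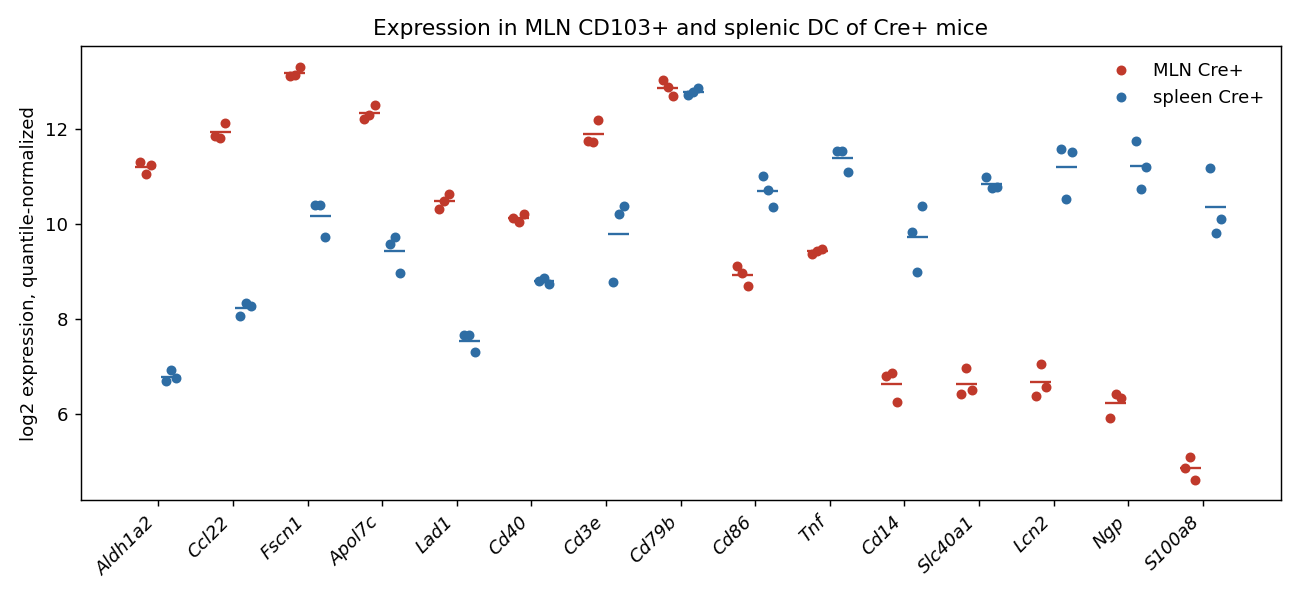
Quantile-normalized log2 expression (y axis) of 15 genes named in the text in each of 3 MLN Cre+ (left) and 3 spleen Cre+ (right) arrays, with a bar at the group mean. Genes such as Aldh1a2 and Ccl22 lie higher in every MLN Cre+ array, Cd79b overlaps, and S100a8, Ngp and Lcn2 lie lower in every MLN Cre+ array. The rule that named Aldh1a2, Ccl22, S100a8, Ngp and Lcn2 required no overlap.

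Other large rises lay outside the lists. Lad1, which encodes the basement membrane protein ladinin, measured 10.31, 10.48 and 10.62 in MLN Cre+ and 7.65, 7.67 and 7.30 in spleen Cre+, a rise of 2.93 (adjusted p = 4.34e-07 in limma). The adenylate cyclase Adcy6 rose by 2.52 (adjusted p = 1.10e-06) and Papss2, which makes the sulphate donor of the cell, by 2.52 (adjusted p = 1.45e-06).

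The remaining 8 of the 15 largest rises were olfactory and vomeronasal receptor genes, chemosensory receptors of nasal neurons. Olfr46 measured 7.85, 7.55 and 6.65 in MLN Cre+ and 4.35, 3.62 and 3.56 in spleen Cre+, and Vmn1r15 measured 7.84, 7.20 and 6.39 in MLN Cre+ and 4.15, 3.56 and 3.61 in spleen Cre+. Both were highest in replicate 1 and lowest in replicate 3 of MLN Cre+, and they rose by 3.51 and 3.37. Olfr606 (3.17), Olfr1305 (2.83), Olfr729 (2.75), Olfr715 (2.68), Olfr1264 (2.51) and Olfr235 (2.5) were the others. Because of them the whole family was counted after these values were seen. Of 715 measured Olfr genes, 465 rose on both scales and 2 fell, with a median of 0.94 after quantile normalization and 1.31 as deposited. Their median level was 5.25 in MLN Cre+ and 4.13 in spleen Cre+, and 68 of them passed the level of 7. On both scales 20.5% of all measured genes rose and 25.1% fell. Of the members, which lie above that level, 6.18% rose. Of 81 measured Vmn1r genes 40 rose and none fell on both scales. Together these families made up 58 of the 255 probe sets that rose by at least 2-fold. A receptor class with no known role in DC was thus higher in MLN Cre+ over most of its members. It was not set against other genes of like level, so the rise cannot be called particular to the class. The cause was not tested.

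**Figure D3:**
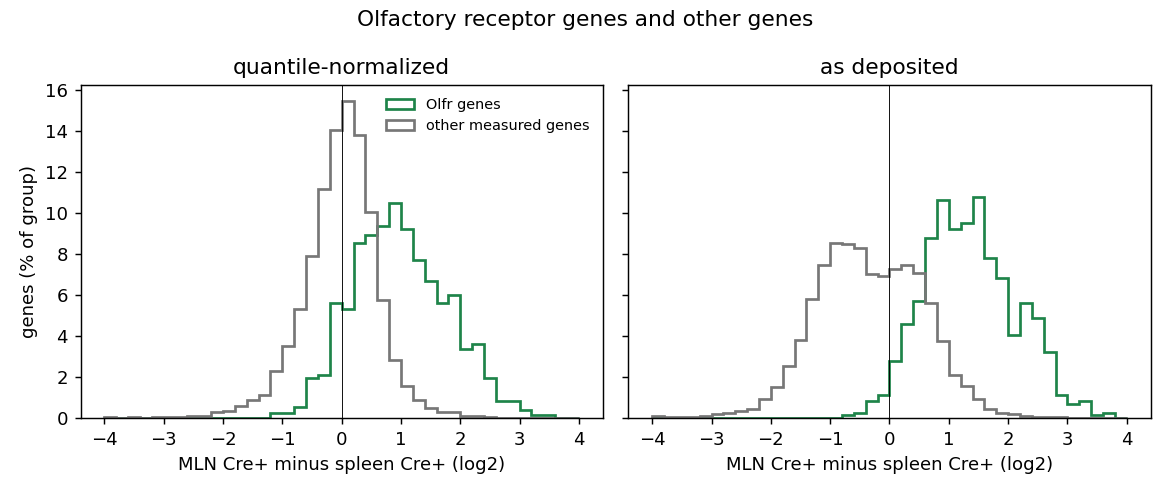
Distribution of the difference between MLN Cre+ and spleen Cre+ (x axis, log2) among 715 Olfr genes and all other measured genes, as the percentage of each group's genes (y axis), after quantile normalization (left) and as deposited (right). The Olfr genes centre on 0.94 and 1.31, to the right of the other genes on both scales. The other genes were not matched to them by level.

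The largest falls included genes of neutrophil granules and of neutrophil surface receptors. Of 18 neutrophil genes, 14 fell (77.8%), 13 of them by at least 2-fold, and none rose, with a median of -2.85. Among all measured genes 25.1% fell on both scales, and 5.79% with the 2-fold rule. S100a8, a subunit of the calcium-binding protein calprotectin, measured 4.87, 5.09 and 4.62 in MLN Cre+ and 11.17, 9.80 and 10.11 in spleen Cre+. It fell by 5.50, 45.3-fold (SE 0.295, adjusted p = 7.80e-07 in limma), and by 5.83 as deposited. Ngp, neutrophilic granule protein, measured 5.92, 6.42 and 6.33 in MLN Cre+ and 11.73, 10.74 and 11.19 in spleen Cre+, and fell by 5.0 (adjusted p = 4.61e-07). Lcn2, which binds bacterial siderophores, measured 6.37, 7.05 and 6.57 in MLN Cre+ and 11.56, 10.52 and 11.50 in spleen Cre+, and fell by 4.53 (adjusted p = 1.04e-06). In each of these the spleen Cre+ arrays varied by more than the MLN Cre+ arrays. A lack of overlap between the groups was a condition for naming them.

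The receptor genes Trem1 (-4.68), Il1r2 (-4.40), Csf3r (-2.66) and Cxcr2 (-2.23) fell as well, as did the granule genes S100a9 (-3.97), Ltf (-3.57), Mmp8 (-3.22) and Camp (-3.03) and the secreted Retnlg (-3.45). Of the granule genes made early in the bone marrow, Elane averaged 6.95 in MLN Cre+ and 6.83 in spleen Cre+ and was not called. Mpo averaged 5.84 in MLN Cre+ and 6.36 in spleen Cre+, and fell by 0.53, and by 0.39 as deposited. In Cre- mice the same tissue differences were -4.67 for S100a8, -3.65 for Ngp and -3.10 for Lcn2. None of these 3 was called in the test of Cre+ against Cre-, with adjusted p of 0.438, 0.158 and 0.169 in limma. The tissue difference of Ltf was -3.57 in Cre+ and -1.61 in Cre- mice, and this difference of -1.96 was called as deposited (adjusted p = 0.044) but not after quantile normalization (adjusted p = 0.071). The median of the neutrophil genes was -2.85 in Cre+ and -2.21 in Cre- mice.

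Promoter sequences of a few genes picked at both ends of the comparison are shown so that the 2 sets can be set side by side. Each covers 250 bases before and 50 after the first listed start, from RefSeq on GRCm38.p6, 5′ to 3′ on the gene's strand, and a promoter was matched for 16 of 22 migratory DC genes and 16 of 18 neutrophil genes. A pair of motifs was chosen with the gene lists' results known and searched on both strands, with overlapping matches counted once a promoter. The C/EBP motif, TTGCNNAA, belongs to a transcription factor family of myeloid cells, and its matches stand in capitals. It was found in 6 of 16 neutrophil promoters (37.5%: Lcn2, Ltf, Mmp8, Ngp, Retnlg and S100a9), in 0 of 16 migratory DC promoters and in 10.8% of all 27025 promoters. The kappaB consensus, the site of NF-kappaB, was found in 1 of 16 promoters of each list (6.25%) and in 5.55% of all promoters. A match is a run of letters and no evidence of binding, and no test was made. Neither motif was found in the Aldh1a2 promoter (chr9:71215539-71215838, plus strand) or the Ccl22 promoter (chr8:94745434-94745733, plus strand). Those of Ngp (chr9:110419558-110419857, plus strand), Lcn2 (chr2:32387690-32387989, minus strand) and S100a9 (chr3:90695672-90695971, minus strand) held 2, 1 and 1 C/EBP matches. The neutrophil promoters shown were picked and are all among the 6 of 16 with a match, so they do not represent the list.
Aldh1a2: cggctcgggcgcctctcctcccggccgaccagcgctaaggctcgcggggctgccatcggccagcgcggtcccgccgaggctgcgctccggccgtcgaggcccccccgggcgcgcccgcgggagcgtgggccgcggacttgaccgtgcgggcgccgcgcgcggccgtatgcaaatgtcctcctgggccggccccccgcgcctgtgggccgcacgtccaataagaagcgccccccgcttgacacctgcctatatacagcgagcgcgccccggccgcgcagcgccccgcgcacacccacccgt
Ccl22: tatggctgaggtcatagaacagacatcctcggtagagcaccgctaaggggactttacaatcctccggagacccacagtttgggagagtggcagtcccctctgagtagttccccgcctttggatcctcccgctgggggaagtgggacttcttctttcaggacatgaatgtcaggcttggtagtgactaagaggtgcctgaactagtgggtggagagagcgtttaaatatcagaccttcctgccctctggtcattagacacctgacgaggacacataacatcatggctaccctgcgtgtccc
Ngp: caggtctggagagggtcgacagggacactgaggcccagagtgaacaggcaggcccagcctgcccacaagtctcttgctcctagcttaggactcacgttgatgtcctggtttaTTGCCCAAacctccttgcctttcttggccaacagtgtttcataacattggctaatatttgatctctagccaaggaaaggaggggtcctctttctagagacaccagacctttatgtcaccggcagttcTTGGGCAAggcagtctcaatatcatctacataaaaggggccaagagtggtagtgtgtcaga
Lcn2: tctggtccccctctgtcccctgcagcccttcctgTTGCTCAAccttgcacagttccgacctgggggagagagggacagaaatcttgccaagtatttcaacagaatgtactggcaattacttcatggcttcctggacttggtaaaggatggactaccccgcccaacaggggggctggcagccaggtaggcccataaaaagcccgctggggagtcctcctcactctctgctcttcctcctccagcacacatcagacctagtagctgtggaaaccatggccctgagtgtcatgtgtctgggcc
S100a9: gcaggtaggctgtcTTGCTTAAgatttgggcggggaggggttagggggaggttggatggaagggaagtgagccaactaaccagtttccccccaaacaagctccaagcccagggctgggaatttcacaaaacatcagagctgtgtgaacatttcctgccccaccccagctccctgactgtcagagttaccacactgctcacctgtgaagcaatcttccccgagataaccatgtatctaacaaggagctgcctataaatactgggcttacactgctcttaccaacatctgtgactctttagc

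Macrophage genes were lower in MLN Cre+ almost throughout. Of 25 measured, 23 fell (92.0%), 22 of them by at least 2-fold, and the scavenger receptor gene Marco rose (0.70). Among the members 36.6% fell on both scales, and 7.97% with the 2-fold rule. The median of the macrophage genes was -1.63 after quantile normalization and -2.55 as deposited. Slc40a1, which encodes the iron exporter ferroportin of red pulp macrophages, measured 6.43, 6.96 and 6.51 in MLN Cre+ and 10.98, 10.75 and 10.78 in spleen Cre+, a fall of 4.20 (adjusted p = 1.04e-06 in limma). Hpgd, which breaks down prostaglandins, measured 6.83, 6.85 and 6.68 in MLN Cre+ and 10.14, 10.28 and 10.14 in spleen Cre+, a fall of 3.40 (adjusted p = 1.88e-07). The haem oxygenase Hmox1 (-2.86), the mannose receptor Mrc1 (-2.70), the red pulp macrophage factor Spic (-2.34) and the efferocytosis receptor Mertk (-2.31) fell too. All 3 genes of complement C1q fell, by 2.08 (C1qb), 1.67 (C1qa) and 1.63 (C1qc).

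Monocyte genes fell in 14 of 16 cases (87.5%, against 36.6% of the members), 12 by at least 2-fold, and none rose (median -1.75). Cd14, the co-receptor for bacterial endotoxin, measured 6.79, 6.87 and 6.26 in MLN Cre+ and 9.83, 8.98 and 10.38 in spleen Cre+, a fall of 3.09 (adjusted p = 2.09e-05 in limma). Clec4e (-3.14), a lectin that senses mycobacterial glycolipid, the Fc receptors Fcgr4 (-3.02) and Fcgr3 (-2.77) and the inflammatory monocyte chemokine receptor Ccr2 (-1.81) were lower. The list means per array did not overlap between the groups for any of these cell types: they were 6.05 to 6.36 in MLN Cre+ and 8.31 to 9.03 in spleen Cre+ for neutrophil genes, 7.81 to 8.02 in MLN Cre+ and 9.61 to 9.65 in spleen Cre+ for macrophage genes, and 7.55 to 8.04 in MLN Cre+ and 9.43 to 9.75 in spleen Cre+ for monocyte genes. This does not set the 3 cell types apart, since the means of other lists did not overlap either. Those of the TGF-beta pathway genes were 8.15 to 8.22 in MLN Cre+ and 8.35 to 8.37 in spleen Cre+. The part that neutrophils, macrophages and monocytes had in the differences was not tested.

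Among the other large falls were the metalloelastase gene Mmp12 (-3.41), the glutathione transferase Mgst1 (-3.80) and the hydrolase Cmbl (-4.10). Klri2 (-3.41), a killer cell lectin-like receptor gene, and the chemokine gene Cxcl2 (-3.58) completed the 15 largest.

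T cell genes moved the other way. Of 18 measured, 9 rose on both scales, 8 by at least 2-fold, and none fell, with a median of 1.28 after quantile normalization and 0.49 as deposited. On the quantile-normalized scale alone 17 of the 18 T cell genes were higher. The transcription factor Lef1 rose by 2.37, the adaptor Lat by 1.88, Cd3e by 2.10 and the kinase Zap70 by 1.74. Cd8b1, the CD8 chain of T cells that DC lack, rose by 1.71. Cd3g (0.91, and -0.11 as deposited) and Cd3d (0.86) passed after quantile normalization alone. The list means were 10.2 to 10.3 in MLN Cre+ and 8.47 to 9.27 in spleen Cre+. B cell genes did not share this: none of 14 rose, 4 fell (28.6%, near the shares above), and the median was -0.04. NK and cytotoxic genes fell in 8 of 13 cases (61.5%), among them Klre1 (-3.09), Fasl (-1.78) and Ncr1 (-1.74), and none rose. How much of any rise in MLN Cre+ came from T cells was not tested. That bears on the genes T cells also express, such as Ccr7, Stat4, Cd200 and Icos (1.46).

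Chemokine ligands were split, with 8 of 28 rising (28.6%) and 10 falling (35.7%), against 20.5% and 25.1% of all measured genes. Beside Ccl22 and Ccl17, rises included Cxcl16, a membrane-bound chemokine, which measured 11.90, 11.93 and 12.17 in MLN Cre+ and 10.18, 10.20 and 9.76 in spleen Cre+ and rose by 1.95 (adjusted p = 3.58e-06 in limma). Cx3cl1 (1.44) also rose, as did Ccl20 (1.35), the ligand of CCR6. Falls included those of Cxcl2, which draws neutrophils, by 3.58, Ccl4 by 2.29, Ccl2 by 2.14 and Xcl1 by 1.64. Chemokine receptors showed 12 of 23 falls and no rise on both scales. The falls were led by Ccr3 (-2.90), Ccr1 (-2.54) and Cxcr2. The list also held S1pr3, a receptor for sphingosine 1-phosphate, which fell by 2.11. Xcr1, the receptor of cross-presenting DC, averaged 9.90 in MLN Cre+ and 9.88 in spleen Cre+, and its difference was 0.02 after quantile normalization and -1.02 as deposited.

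Cytokine genes rose in 9 (29.0%) and fell in 11 (35.5%) of 31 cases, against 20.5% and 25.1% of all measured genes. Il15, which sustains T cells and NK cells, rose by 1.33, and Il7, another lymphocyte survival factor, by 1.12. Tnf measured 9.37, 9.43 and 9.46 in MLN Cre+ and 11.54, 11.52 and 11.08 in spleen Cre+, and fell by 1.96 (adjusted p = 2.45e-06 in limma). The interleukin 1 family genes Il1a (-2.42), Il18 (-2.21) and Il1b (-2.01) fell as well. Tgfb1 averaged 10.04 in MLN Cre+ and 10.40 in spleen Cre+ and fell by 0.36.

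Costimulatory ligands did not move as a block, with 6 of 18 rising and 6 falling (33.3% each). Of all measured genes 20.5% rose and 25.1% fell. Cd40, through which T cells license DC, measured 10.13, 10.04 and 10.21 in MLN Cre+ and 8.80, 8.85 and 8.73 in spleen Cre+, a rise of 1.34 (adjusted p = 6.27e-06 in limma). Slamf1 rose by 1.40, and Pdcd1lg2, a ligand of the inhibitory receptor PD-1, by 0.86. Cd86, a ligand of CD28, measured 9.10, 8.96 and 8.69 in MLN Cre+ and 10.99, 10.72 and 10.35 in spleen Cre+, a fall of 1.77 (adjusted p = 2.07e-05). The maturation marker Cd83 measured 11.01, 11.07 and 10.87 in MLN Cre+ and 12.23, 12.38 and 11.98 in spleen Cre+, a fall of 1.21 (adjusted p = 1.31e-05), and Cd80 fell by 0.87.

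Immediate early genes fell in 18 of 21 cases (85.7%, against 36.6% of the members), 8 by at least 2-fold, and none rose (median -0.92). Ier3 (-2.10), Nr4a1 (-2.02), Atf3 (-1.80) and Ier2 (-1.64), all known for rapid induction by stimuli, fell the most. Heat shock and stress genes fell in 6 of 12 cases, led by Hmox1, Atf4 (-1.32) and the endoplasmic reticulum chaperone Hspa5 (-1.26). The magnetic and the flow sort were each used in 1 tissue only, so sorting and tissue cannot be told apart for these genes.

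**Figure D4:**
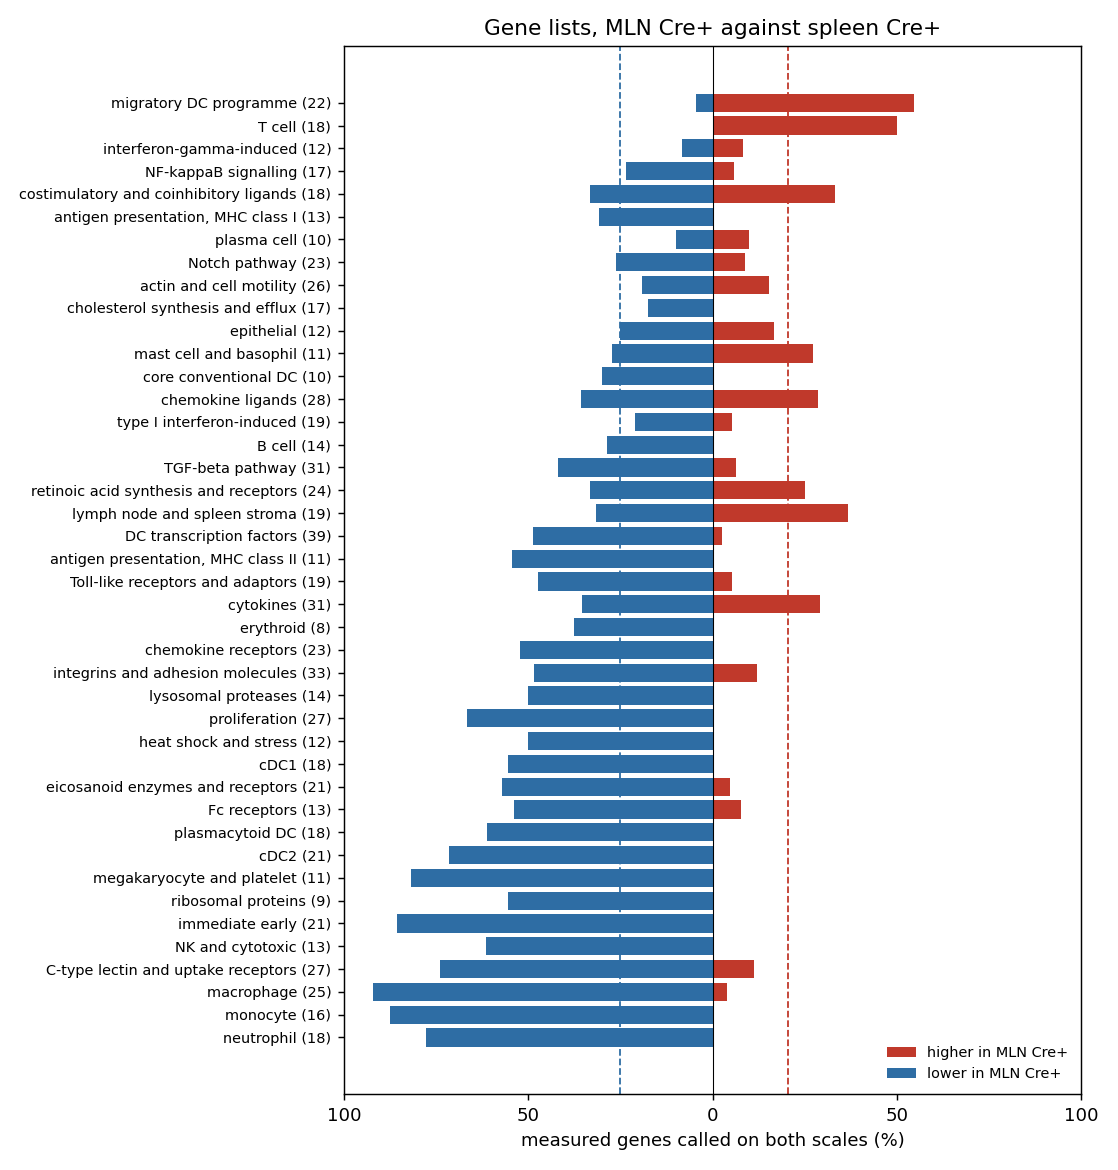
Percentage of each gene list's measured genes (number in brackets) that were called higher (right) or lower (left) in MLN Cre+ against spleen Cre+ on both scales, with lists ordered by their median difference after quantile normalization. Dashed lines mark the shares of all 14382 measured genes, 20.5% higher and 25.1% lower. Migratory DC and T cell lists reach farthest to the right, and macrophage, monocyte, immediate early and megakaryocyte lists farthest to the left.

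Receptors for uptake were among the lists that fell most. Of 27 C-type lectin and uptake receptor genes, 20 fell (74.1%), 16 by at least 2-fold, and 3 rose. By comparison 25.1% of all measured genes and 36.6% of the members fell on both scales. Beside Clec4e, the falls were led by Clec4d (-2.95), Clec4a4 (-2.79), which encodes the 33D1 antigen of splenic DC, and Mrc1. Cd209a, a mouse homologue of DC-SIGN, fell by 2.15. Ly75, which encodes DEC-205, differed by 0.98 after quantile normalization and 0.05 as deposited. Of 13 Fc receptor genes 7 fell (53.8%) and 1 rose. Of 19 genes of Toll-like receptors and their adaptors 9 fell (47.4%), nearer the members' share, and 1 rose. The falls were led by Cd14 and Tlr4 (-1.55), the endotoxin receptor, though the list's median was 0.02 with 1 common median and SD.

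Genes of DC subsets fell more often than they rose, as did the members in general. On both scales 36.6% of the members fell and 6.18% rose. The shares that fell were 71.4% for cDC2, 55.6% for cDC1 and 61.1% for plasmacytoid DC genes. Of 21 cDC2 genes 15 fell on both scales and none rose, with Clec4a4, Cd209a, Cd300a (-1.98) and Ccr2 in front. Itgam, which encodes CD11b, measured 8.58, 8.75 and 8.46 in MLN Cre+ and 10.13, 9.86 and 9.75 in spleen Cre+, a fall of 1.32 (adjusted p = 1.28e-05 in limma). Several of the cDC2 genes are also expressed by macrophages and monocytes. Of 18 cDC1 genes 10 fell and none rose, the largest falls being those of Cd36 (-2.59), Cadm1 (-1.03) and Naaa (-1.02). Clec9a, a receptor for dead cells, averaged 9.74 in MLN Cre+ and 9.99 in spleen Cre+, and its difference was -0.24 (adjusted p = 0.244 in limma) after quantile normalization and -1.28 (adjusted p = 2.51e-04) as deposited. Irf8, the cDC1 transcription factor, fell by 0.46, though it differed by 0.030 where each array was set to 1 median and SD. Of 18 plasmacytoid DC genes 11 fell, with Siglech, their marker lectin, at -0.81, and none rose.

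Of 39 DC transcription factors 19 fell (48.7%, against 36.6% of the members) and 1 rose, Ikzf2 (1.25). The falls were led by the macrophage factor Spic, then Id1 (-2.17), Nr4a1 and Cebpb (-1.99), a C/EBP factor. Klf4 (-1.56) and Irf4 (-0.85), factors of cDC2, fell, while Zbtb46, a factor of conventional DC, averaged 8.12 in MLN Cre+ and 7.65 in spleen Cre+ and its difference was 0.47 after quantile normalization and -0.12 as deposited. In the Notch pathway, which cDC2 of the spleen depend on, 6 of 23 genes fell (26.1%, against 25.1% of all measured genes), with the target genes Hes1 (-1.96) and Nrarp (-1.36) in front, and 2 rose, with the ligand Jag1 (1.29) in front. The list's median was 0.13 after quantile normalization and -0.48 as deposited. Hes1 measured 7.25, 7.12 and 6.93 in MLN Cre+ and 9.07, 9.08 and 9.04 in spleen Cre+.

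The TGF-beta pathway itself, whose receptor was targeted in both groups, had 13 falls (41.9%) and 2 rises among 31 measured genes, where 25.1% of all measured genes and 36.6% of the members fell. That is near the members' share, and 26 of the 31 lay above the level of 7. Tgfbi, a secreted matrix protein gene that TGF-beta induces, fell by 1.58, the SMAD corepressors Skil by 1.04 and Tgif1 by 0.97, and the inhibitory Smad7 by 0.86. The first receptor chain, Tgfbr1, fell by 0.59. In Cre- mice the tissue differences of these were -2.70, -0.90, -0.96, -0.80 and -0.65, and none was called in the test of Cre+ against Cre-.

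Several lists changed direction with the scale. NF-kappaB signalling genes were higher in 13 of 17 cases after quantile normalization (median 0.58), but the median was -0.42 as deposited. On both scales 1 rose, the kinase Ikbke (1.38), and 4 fell, with Nfkbiz (-0.91) and Tnfaip3 (-0.52), both induced by the pathway, in front. The median of 13 genes of MHC class I presentation was 0.39 after quantile normalization and -0.57 as deposited, and that of 12 interferon-gamma-induced genes 0.70 and -0.22. Among the interferon-gamma-induced genes Ido1, which degrades tryptophan, rose on both scales (1.51). No direction is given for these lists. The median of 19 type I interferon-induced genes kept its sign, at -0.03 after quantile normalization and -0.88 as deposited. Of these genes 4 fell (21.1%, against 25.1% of all measured genes) and the antiviral gene Mx1 rose (1.79). Under 4 scalings (these scales, 1 common median, and 1 common median and SD) the medians of the migratory DC, T cell and Olfr genes stayed above 0. So did those of the epithelial and the mast cell and basophil genes. Those of the neutrophil, macrophage, monocyte, C-type lectin and immediate early genes stayed below 0. So did those of many other lists, among them cDC1, cDC2, plasmacytoid DC, NK and cytotoxic, chemokine receptor, proliferation and TGF-beta pathway genes.

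Smaller lists are given by their counts on both scales. On these 20.5% of all measured genes rose and 25.1% fell, and 6.18% and 36.6% of the members. MHC class II genes fell in 6 of 11 cases and none rose, though their median was 0.15 with 1 common median and SD. Of 33 integrin and adhesion genes 16 fell, led by Vcam1 (-2.28), and 4 rose, led by the tight junction gene Ocln (1.41). Of 26 actin and motility genes 4 rose, led by Fscn1 and Arhgap31 (1.89), and 5 fell, led by Rhob (-1.31). Eicosanoid genes fell in 12 of 21 cases, with Alox5ap (-1.83), Hpgds (-1.80) and Ptgs2 (-1.72) after Hpgd, and Alox15 rose (1.04). Of 14 lysosomal protease genes 7 fell, of 17 cholesterol genes 3 fell, and none of either rose. The lysosomal median was -0.39 after quantile normalization and 0.16 with 1 common median and SD. Proliferation genes fell in 18 of 27 cases, 2 of them by at least 2-fold, and none rose. Of 9 ribosomal protein genes 5 fell.

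Markers of further cell types were called in both directions, where 20.5% of all measured genes rose and 25.1% fell on both scales. The mast cell and basophil list (27.3% each way) and the epithelial list (16.7% and 25.0%) lay near these shares. Megakaryocyte and platelet genes fell in 9 of 11 cases, led by Thbs1 (-2.80) and Ppbp (-2.32), and none rose. Of 8 erythroid genes 3 fell, and of 11 mast cell and basophil genes 3 rose and 3 fell. Of 19 stromal genes 7 rose, led by Pdpn (1.24), and 6 fell, and of 12 epithelial genes 2 rose and 3 fell. Of 10 plasma cell genes 1 rose and 1 fell.

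Most of these differences ran the same way in Cre- mice. Of the 907 members called on both scales with at least a 2-fold difference, 904 had the same sign in MLN Cre- against spleen Cre-, and 895 were also called the same way there. Across members the 2 sets of differences correlated at 0.946, as a description. When the difference between them was tested, 15 members were called (0.183%), 13 higher and 2 lower, while 1060 had an unadjusted p under 0.05. These calls did not hold when single arrays were left out. No member was called when any 1 of the 3 MLN Cre+ arrays was dropped, nor after dropping the second MLN Cre- or the first spleen Cre- array. The count was 1 without spleen Cre- replicate 2, 3 without MLN Cre- replicate 1, 4 without spleen Cre+ replicate 1 or 3, and 7 without spleen Cre+ replicate 2. Dropping replicate 3 of MLN Cre- left 11, and dropping replicate 3 of spleen Cre- gave 22. None of the 15 was called in all 12 of these fits, and against a 1.5-fold threshold (treat) no member was called.

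Macrophage genes made up 5 of the 15. Mertk averaged 6.94 in MLN Cre+ and 9.25 in spleen Cre+, and 6.17 in MLN Cre- and 10.06 in spleen Cre-. Its tissue difference was thus -2.31 in Cre+ and -3.88 in Cre- mice, which differ by 1.58 (SE 0.176, adjusted p = 0.0178 in limma). Cd163, the scavenger receptor for haemoglobin, averaged 5.97 in MLN Cre+ and 7.54 in spleen Cre+, and 5.85 in MLN Cre- and 8.67 in spleen Cre-. Its tissue differences differ by 1.25 (SE 0.141, adjusted p = 0.0178). Adgre1, which encodes F4/80, Axl and Fcna were the other 3. The median tissue difference of the 25 macrophage genes was -1.63 in Cre+ and -2.72 in Cre- mice. Cldn1, which encodes a tight junction claudin, went the other way: it averaged 5.92 in MLN Cre+ and 7.0 in spleen Cre+, and 7.71 in MLN Cre- and 7.26 in spleen Cre-. The difference of -1.54 (adjusted p = 0.026) did not pass as deposited (adjusted p = 0.105).

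**Figure D5:**
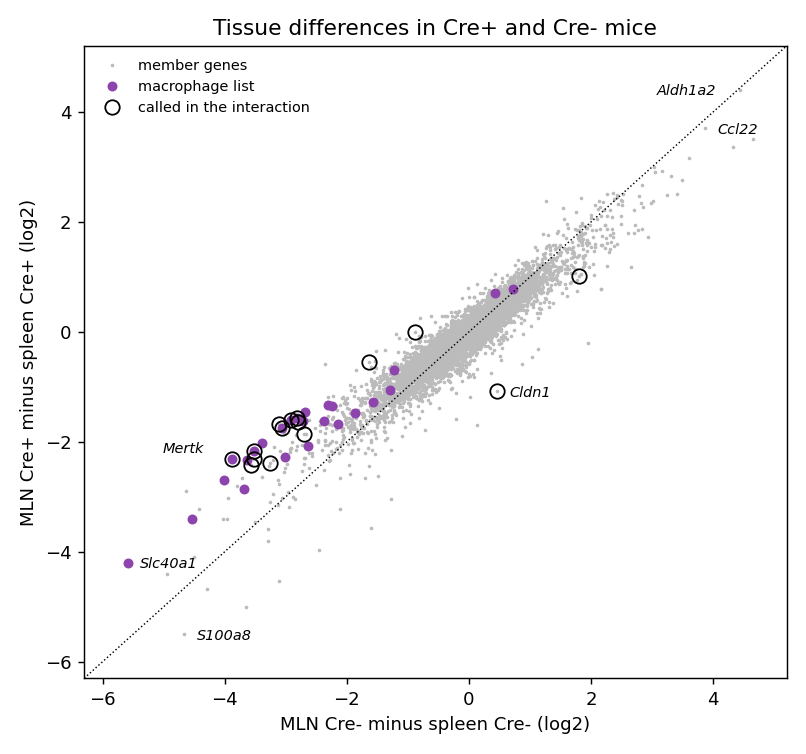
Difference between MLN and spleen in Cre+ mice (y axis, log2) and in Cre- mice (x axis, log2) for each member gene after quantile normalization, with the 25 macrophage genes filled and members called in the test of the difference circled. Points follow the dotted line of equal values. The 5 macrophage genes called in the test lie above it, and none of these calls held whichever single array was left out.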

How the data were processed

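The authors deposited log2 expression per gene, made by RMA in GeneSpring, per the labels. Not given in the sources used here are software version, build and probe annotation. Gene symbols came from GEO's platform annotation (1019 with several symbols and 7317 with none were not named). The 12 arrays were quantile-normalized together, and limma 3.58.1 (R 4.3.3) fitted 4 group means to all 23332 probe sets, with 8 residual and 2.29 prior degrees of freedom, then again to the values as deposited. Two-sided p-values were adjusted over every probe set of a contrast (Benjamini-Hochberg) and called at 0.05. Itgae and Tgfbr2 also had an exact permutation test over 20 arrangements. The steps were tested on simulated data. The members, the gene lists and the rules were chosen with earlier results of these data known. Genes were named by a rule: the targeted and sorted genes, the 15 largest rises and falls called on both scales without overlap, up to 4 largest rises and falls of each list, and up to 8 genes of the interaction. A few others are given as markers, as values chosen after they were seen: Ccr7, Xcr1, Ly75, Zbtb46, Clec9a, Elane, Mpo, Flt3, Irf4 and Tgfbr1 among them. Alternatives were other scalings, other fits and filters, other levels, a replicate block, a 1.5-fold threshold and leaving out each array.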

Additional observations from a re-analysis of the deposited data

Results flagged for a closer look

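For 15 members the tissue difference itself differed between Cre+ and Cre- mice in limma (the interaction). Each value is the MLN minus spleen difference in Cre+ mice minus that in Cre- mice, after quantile normalization. Of macrophage genes, Mertk differed by 1.58, Cd163 by 1.25, Adgre1 by 1.32, Axl by 1.31 and Fcna by 1.36, and all 5 were lower in MLN than in spleen in both genotypes, by less in Cre+ than in Cre- mice. Another 8 also had positive values. They included the phosphatase Ptprm (0.84), the transporter Slc45a3 (0.86), the glycosyltransferase Galnt3 (1.20) and the interleukin Il1a (1.14). The growth factor Igf1 (1.16), the calcium pump Atp2b4 (0.87), the receptor Lrp1 (1.45) and the kinase Dmpk (1.10) were the rest. The tissues differed in Atp2b4 by -0.88 in Cre- mice but by -0.01 in Cre+ mice (adjusted p = 0.953 in limma). Cldn1 (-1.54) and the transporter Slc6a13 (-0.79) had negative values. Slc6a13 was higher in MLN in both genotypes, by less in Cre+ (1.01) than in Cre- mice (1.80). The tissue difference of Cldn1 was -1.08 in Cre+ and 0.45 in Cre- mice. Adjusted p lay between 0.0178 for Mertk and 0.0476 for Fcna. As deposited, Cldn1 (0.105), Slc6a13 (0.053), Atp2b4 (0.0528) and Lrp1 (0.053) did not pass. When each of the 12 arrays was left out in turn, Cd163 was called in 7 of the 12 fits and Mertk in 6, and the others in 1 to 3. What moved these genes was not tested.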

How the results depend on the processing

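With the members redefined on each scale, 418 were higher and 6636 lower as deposited, and 798 and 5881 with 1 common median; with the 2-fold rule 109 were higher and 3160 lower as deposited, and 2090 were lower with 1 common median. Against a 1.5-fold threshold (treat) 407 members were higher and 733 lower, 126 higher with the 2-fold rule, 2947 of all probe sets were called in Cre+ and 4480 in Cre- mice. A level of 6 gave 444 and a level of 8 gave 155 members at least 2-fold higher. Testing only probe sets above the level left 8267 calls in Cre+ and 8683 in Cre- mice, since fewer were tested. The other fits kept each of these counts within 1.5 times.

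Over all probe sets the interaction had 27 calls, and 2970 unadjusted p under 0.05. There were 46 with 1 common median, 423 with array weights (163 members), 74 above the level alone (50 members), 56 among 1-symbol probe sets (42 members) and 0 under treat (0 members). A level of 8 left 8 members. With the replicate number as a block, 0 were called; same-numbered samples of 2 groups deviated from their group means with correlations of -0.13 to 0.29, over 0.1 in 2 of 18 pairs, so the numbers were not taken to pair samples. The block changed no call of the 175 named genes in MLN Cre+ against spleen Cre+. Leaving out 1 array gave 0 to 48 calls and 0 to 22 members. The counts in MLN Cre+ against spleen Cre+ stayed within 11979 to 13650, the members higher within 2057 to 2387 and lower within 2704 to 3030, and those 2-fold higher within 230 to 264 and lower within 625 to 675. In Cre- mice the range was 13727 to 15074.

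Among the 175 named genes the sign turned for Ccr7 (-0.10), Cd3g (-0.11), Cd79b (-0.48), Flt3 (-0.96), Xcr1 (-1.02) and Zbtb46 (-0.12) as deposited, for Cd79b (-0.26), Flt3 (-0.75) and Xcr1 (-0.81) with 1 common median, and for H2-Aa (1.18) and Irf8 (0.030) with 1 common median and SD. The cause was not tested. Under treat 29 lost their call, and leaving out an array changed the call of at most 2 and turned no sign. RMA values carry no background call, so how far low values are noise is not known.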
